A study of Mus musculus with 6 samples.

Results

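Costimulatory ligands are surface proteins with which antigen-presenting cells raise or dampen the response of T cells. This account follows 10 genes of that kind, Cd80, Cd86, Cd40, Cd274, Pdcd1lg2, Icosl, Cd276, Tnfsf9, Cd83 and Cd200, out of 38926 genes in the count lists. They were taken by name, because Cd80 had stood out among the genes with more RNA in Dpy30 knockout stem cells, and the question was whether its family moved with it. Cd80 was thus chosen by its counts in these same samples, which were 0 in every control and above 0 in every knockout. All 10 are described here by their values, and no test of that difference is given for any of them.

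The samples were hematopoietic stem cells (HSCs), the cells that renew the blood, purified by flow cytometry from the fetal livers of E14.5 mouse embryos. The controls were Vav-Cre; Dpy30F/+ and the knockouts Vav-Cre; Dpy30F/-, 3 samples each, with 1 of each genotype from each of 3 litters. Samples are numbered by litter, and values are listed in the order of litters 1, 2 and 3. Vav-Cre drives the recombinase in blood-forming cells, and both genotypes carried it together with a floxed Dpy30 allele (F). The controls had a wild-type second allele and the knockouts a null one, so the comparison is with heterozygous cells. The Dpy30 protein belongs to the common core of the SET1/MLL enzyme complexes, which methylate lysine 4 of histone H3, a mark of active promoters. The labels do not say how many embryos a sample held.

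Counts assigned to genes ranged from 31.9 to 43.4 per sample, in units of 1000000. Dpy30 itself had 712, 904 and 1395 counts in the controls and 315, 216 and 478 in the knockouts, so every knockout was below every control. Among 12 HSC markers none was at 0 in all samples, and their summed level was 1048 to 1145 CPM (counts per 1000000, on scaled library sizes) in controls and 597 to 1388 CPM in knockouts. Knockout 3 was the low one: Hlf, a transcription factor of HSCs, had 954 counts there and 4901 to 8343 in the other samples. Knockout 2 stood apart in endothelial genes: Lyve1, a receptor of sinusoidal endothelium, had 1049 counts there and 12872 to 25460 elsewhere.

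CD80 and CD86, also called B7-1 and B7-2, are the paired ligands of CD28, which activates T cells, and of CTLA-4, which restrains them. They are typical of macrophages, dendritic cells and activated B cells. CD274 (PD-L1) and PDCD1LG2 (PD-L2) are the ligands of the inhibitory receptor PD-1, ICOSL binds ICOS, and CD276 (B7-H3) is a further member of the B7 family whose receptor is debated. TNFSF9 is the TNF family ligand of the T cell receptor protein CD137. CD200 restrains myeloid cells through CD200R. CD40 and CD83 are surface proteins of antigen-presenting cells, and CD40 is strictly the receptor of CD40 ligand on T cells.

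Cd80 RNA was not found in any control. It had 0 counts in controls 1, 2 and 3, and 132, 398 and 485 counts in knockouts 1, 2 and 3. The knockouts held 3.32, 11.0 and 13.9 CPM, a mean of 9.38 ± 5.44 CPM (SD, n = 3), with knockout 1 the lowest. A count of 0 allows a level of up to 3 counts, which is 0.0680 to 0.104 CPM in the 3 controls. Against the mean of those limits, 0.0840 CPM, the knockout mean was at least 112-fold higher. These limits cover counting error only, since PCR copies of 1 molecule could not be told apart.

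Cd86 was present in every sample and was also higher in every knockout. It had 52, 139 and 142 counts in the controls and 845, 590 and 956 counts in the knockouts. Mean levels were 2.91 ± 0.998 CPM in the controls and 21.6 ± 5.53 CPM in the knockouts (SD, n = 3 each), a 7.42-fold difference. The knockout of litter 1 was 11.8-fold above its control, that of litter 2 was 4.37-fold above and that of litter 3 was 8.48-fold above. The fitted log2 fold change was 2.89 (SE 0.55), and it stayed between 2.64 and 3.10 in the 12 other settings tried, which included leaving out each sample in turn. In bulk RNA, more cells that express a gene cannot be told apart from more RNA per cell.

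**Figure D1:**
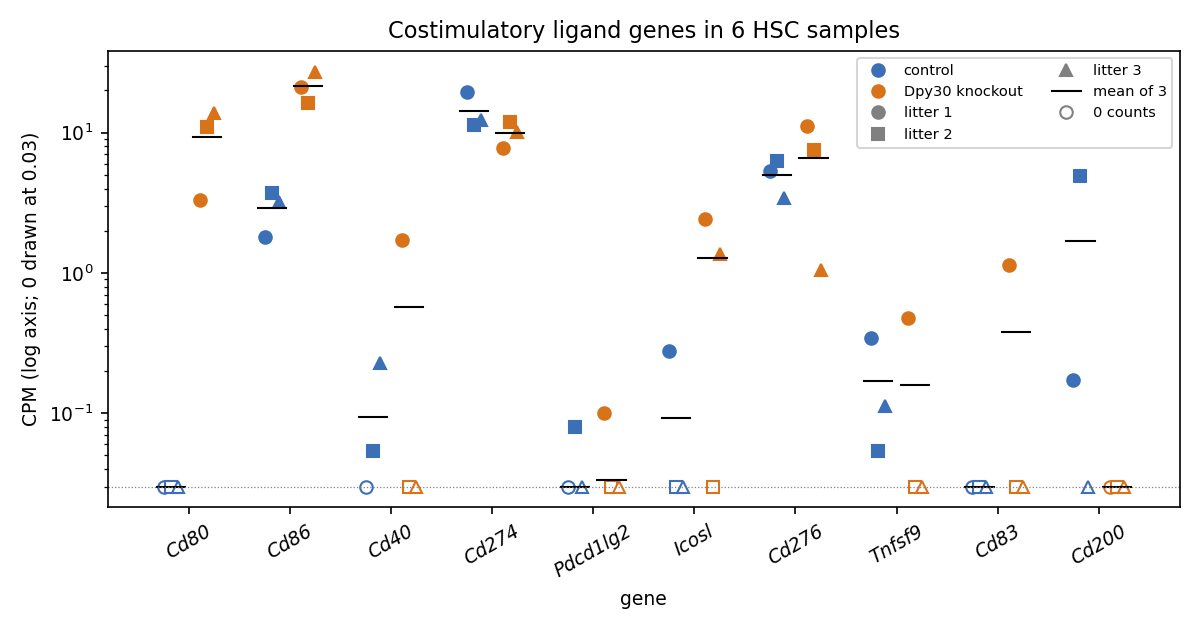
CPM of the 10 genes (log axis) in 3 controls (blue) and 3 knockouts (orange); the marker shape gives the litter, black bars are means of 3, and open symbols on the dotted line are samples with 0 counts. Cd80 goes from 0 in the controls to 3.32 to 13.9 CPM in the knockouts and Cd86 is higher in every knockout, while the groups overlap for the other 8 genes.

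The ligands of PD-1 did not follow Cd80. Cd274 had 562, 423 and 541 counts in the controls and 310, 435 and 354 in the knockouts. Mean levels were 14.3 ± 4.42 and 9.97 ± 2.10 CPM (SD, n = 3 each), and the groups overlapped, with knockout 2 above control 2. Its log2 fold change was -0.52 (SE 0.50). Pdcd1lg2, the neighbour of Cd274 on chromosome 19, was near the limit of detection, with 3 counts in control 2, 4 counts in knockout 1 and 0 in the other 4 samples.

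Cd276 was expressed in both genotypes and spread widely among the knockouts. It had 155, 235 and 152 counts in the controls and 442, 271 and 37 in the knockouts, so the knockouts lay on both sides of the controls. Its log2 fold change was 0.38 (SE 0.93). The value was -0.23 without knockout 1 and 0.90 without knockout 3, and -0.10 with the litter as a block, so these counts give it no settled direction. Cd274, Cd276, Pdcd1lg2 and Tnfsf9 are each overlapped by an annotated RNA on the opposite strand, and the strandedness of the counting is not given in the sources used here.

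The remaining 5 genes, like Pdcd1lg2, did not have enough counts in enough samples to enter the test across genes. Cd80, at 0 in every control, entered it through its counts in the knockouts alone. Of the 5 genes, 1 (Cd200) had its highest count in a control. Cd200 had 5, 184 and 0 counts in the controls and 0 in every knockout, so its control level rested on control 2 alone. Icosl had 8, 0 and 0 counts in the controls and 97, 0 and 48 in the knockouts, so 2 knockouts were above the controls and knockout 2 was not. Cd40 had 0, 2 and 10 counts in the controls and 68, 0 and 0 in the knockouts.

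Cd83, a marker of mature dendritic cells, had 0 counts in every sample except knockout 1, which had 45. Tnfsf9 had 10, 2 and 5 counts in the controls and 19, 0 and 0 in the knockouts. Knockout 1 thus held the highest count of Cd40, Icosl, Tnfsf9 and Cd83. It had counts for 9 of the 10 genes, where knockouts 2 and 3 had counts for 4 and 5 and the controls for 5 to 7. Fewer genes of any kind were detected in knockouts 2 and 3 (14674 and 13972) than in knockout 1 (16857) and the controls (16149 to 17241). Knockout 1 was at the same time the knockout with the least Cd80.

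Of the 10 genes, 2 (Cd80 and Cd86) had every knockout above every control, and 0 had every knockout below. Over the 13646 genes tested, 6.39% had every knockout above and 7.74% every knockout below. The 10 genes were taken up because of this contrast, so their count is a description and their test results are not given. At an adjusted p of 0.05, edgeR's quasi-likelihood test called 0% of the genes tested, with 6.51% at an unadjusted p under 0.05. The smallest edgeR adjusted p of any gene was 0.452. Spread between samples was wide, with a common biological coefficient of variation of 0.817. A gene or list that did not pass in edgeR is therefore not shown to be unchanged. DESeq2 called 1.01% of them, 0.762% as higher and 0.249% as lower.

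Levels of different genes were compared per kilobase of exon. In controls the order was Cd274 (3.96 ± 1.22 CPM per kb), Cd276 (1.37 ± 0.395), Cd86 (0.795 ± 0.272), Cd200 (0.511 ± 0.841) and Tnfsf9 (0.132 ± 0.119; SD, n = 3 each). Cd274 stood clear of Cd276, whereas the ranges of Cd276 and Cd86 overlapped. In knockouts the order was Cd86 (5.90 ± 1.51), Cd274 (2.75 ± 0.579), Cd80 (2.53 ± 1.47), Cd276 (1.79 ± 1.39) and Icosl (0.275 ± 0.265; SD, n = 3 each). Cd86 stood clear of Cd274 there, and the ranges of Cd274, Cd80 and Cd276 overlapped. The most abundant of the 10 was Cd274 in each control and Cd86 in each knockout.

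Cd86, Cd80 and Cd200 lie on mouse chromosome 16 (GRCm38): Cd86 at 36603869 to 36666081 on the minus strand, Cd80 at 38455561 to 38496335 on the plus strand, and Cd200 at 45382135 to 45409053 on the minus strand. All are protein-coding, and no other annotated gene overlaps them. Cd86 and Cd80 are 1789 kb apart. The promoters of 6 of the 10 genes were found in the RefSeq table (GRCm38.p6). Those of 3 genes are shown because they belong to the gene that appeared in the knockouts, the one that led in controls and the one at 0 in every knockout. Each run is the 250 bases before the RefSeq start, 5′ to 3′ on the strand of the gene, with CG pairs, the sites of DNA methylation, in capitals.
Cd80, chr16:38458683-38458932, plus strand: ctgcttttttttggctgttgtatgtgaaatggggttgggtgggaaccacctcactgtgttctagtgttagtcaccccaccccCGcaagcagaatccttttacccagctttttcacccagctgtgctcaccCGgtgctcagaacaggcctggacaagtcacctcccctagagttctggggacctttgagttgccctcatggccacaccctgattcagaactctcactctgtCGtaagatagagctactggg
Cd274, chr19:29367188-29367437, plus strand: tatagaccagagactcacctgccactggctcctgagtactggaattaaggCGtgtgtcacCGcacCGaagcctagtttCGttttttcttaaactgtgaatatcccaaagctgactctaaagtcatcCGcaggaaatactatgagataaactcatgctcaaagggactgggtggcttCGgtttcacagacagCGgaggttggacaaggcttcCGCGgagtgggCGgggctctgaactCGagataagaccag
Cd200, chr16:45409054-45409303, minus strand: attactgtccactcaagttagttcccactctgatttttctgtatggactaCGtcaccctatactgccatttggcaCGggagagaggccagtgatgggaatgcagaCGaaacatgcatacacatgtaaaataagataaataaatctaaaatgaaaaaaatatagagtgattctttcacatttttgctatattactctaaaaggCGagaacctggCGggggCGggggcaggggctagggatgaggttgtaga
The Cd80 stretch lies in the first intron of a longer annotated Cd80 transcript.

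The Cd80 window held 3 CG pairs, the Cd274 window 11 and the Cd200 window 6. The other windows held 3 pairs for Pdcd1lg2, 23 for Icosl and 29 for Cd276. The median over 32851 RefSeq promoter windows of the same length was 6, and 29.0% of them had fewer pairs than Cd80. Both strands were searched for 2 short motifs. The loose AP-1-like pattern TGANTCA, in which N is any base, occurred in the Cd80 window, starting 42 bases before the start. It read tgattca there, with t at the centre. None of the other 5 windows held the pattern, and 6.75% of all windows did. The PU.1 core GAGGAA was found for Pdcd1lg2 and Cd276 and in 23.3% of all windows. A match or its absence in these letters says nothing of binding.

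Adprh, an ADP-ribosylarginine hydrolase gene on the minus strand that starts 2.86 kb before the GENCODE start of Cd80, was also higher in every knockout. That start, 38455561, lies before the RefSeq start used for the promoter window. A noncoding RNA, D930030I03Rik, overlaps it and was low, with overlapping groups (1.89 ± 2.39 CPM in the controls and 0.703 ± 0.874 CPM in the knockouts; SD, n = 3 each). Adprh levels were 10.01, 10.5 and 9.53 CPM in the controls and 14.4, 30.4 and 51.7 CPM in the knockouts, with knockout 1 the lowest and knockout 3 the highest, as for Cd80. The fitted log2 change of Adprh, 1.69 (SE 0.51), did not pass (edgeR adjusted p = 0.672; unadjusted p = 0.0110). On the other side Timmdc1, a mitochondrial complex I assembly gene 2.01 kb beyond the end of Cd80, had 8.92 ± 1.68 CPM in the controls and 10.7 ± 8.37 CPM in the knockouts (SD, n = 3 each), with overlapping groups. Of 19 other tested genes that start within 1 Mb of Cd80, 1 (Adprh) had every knockout above every control and 0 had every knockout below. Over all genes tested these shares were 6.39% and 7.74%. Of the 19, 9 had a positive log2 fold change, against 50.8% of all genes tested.

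**Figure D2:**
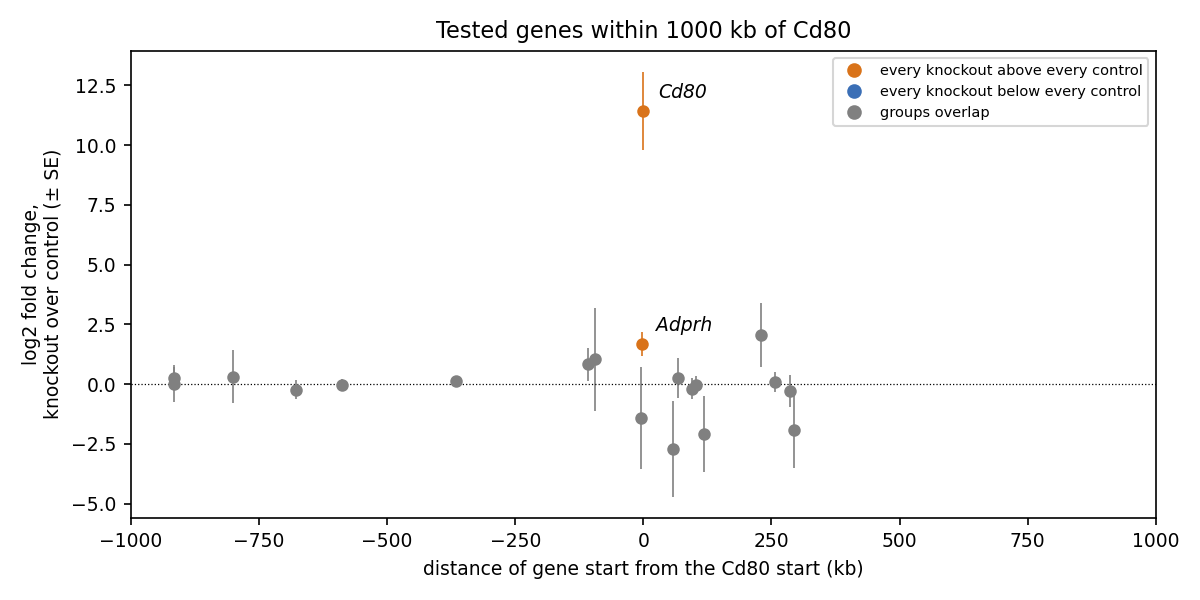
Log2 fold change, knockout over control, with its SE, of tested genes against the distance of their start from the GENCODE start of Cd80 in kb. Orange marks genes with every knockout above every control and grey marks genes whose groups overlap. Cd80 (11.44, a fitted value that depends on how the fit handles 0 counts) and Adprh (1.69), next to each other, are the 2 orange points. The other genes scatter around 0.

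Cd80 was chosen for counts of 0 in every control and above 0 in every knockout, and the genes of that kind are given as a description. Genes with 0 counts in all 3 controls and at least 100 counts in a knockout numbered 123, of which 118 reached 100 counts in 1 knockout, 3 in 2 knockouts and 2 in all 3. Those 2 were Cd80 and Mmp13, a collagenase gene, which had 166, 789 and 512 counts in the knockouts. In the opposite direction, 91 genes had 0 counts in all knockouts and at least 100 in a control, of which 1, the glypican gene Gpc6, did so in all 3 controls. With up to 3 counts allowed in the other genotype, 6 genes were on in all 3 knockouts and 3 in all 3 controls. With control 2 left out the first number was also 6, and without knockout 2 it was 4. The second was 9 without knockout 1.

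**Figure D3:**
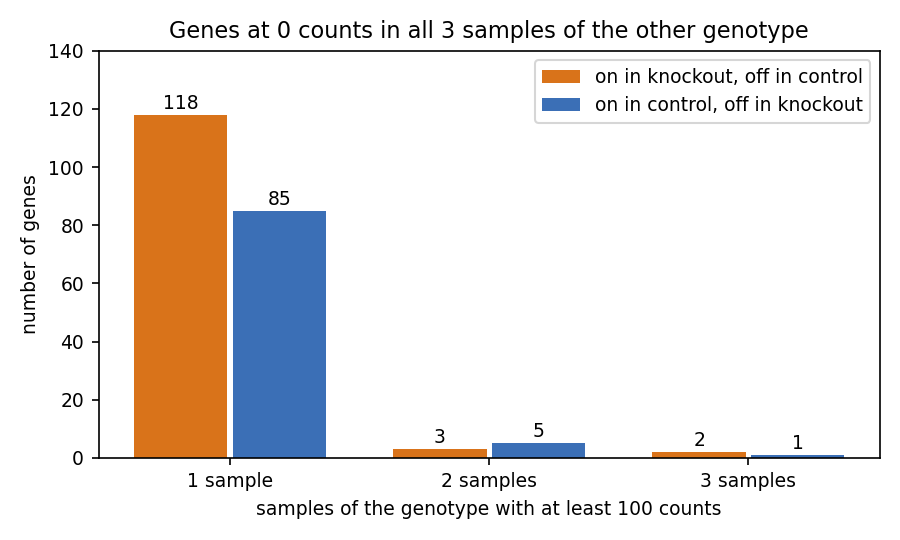
Number of genes with 0 counts in all 3 samples of one genotype, by how many samples of the other genotype had at least 100 counts; orange bars are genes on in knockouts and blue bars genes on in controls. Most of them reach 100 counts in 1 sample (118 and 85), and 2 and 1 do so in all 3.

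The annotated genes whose log2 CPM was most like that of Cd80 over the 6 samples were Mmp13 (Pearson r = 0.998), the sialic acid receptor gene Siglec5 (0.994), the complex I subunit gene Ndufa2 (0.993), the membrane scramblase gene Ano3 (0.992) and Cdkn1a (0.990), which encodes the cell cycle inhibitor p21. Siglec5 had 0 counts in every control and 18, 68 and 67 in the knockouts. Cdkn1a had 56, 112 and 64 counts in controls and 1333, 3355 and 5748 in knockouts, with knockout 1 the lowest as for Cd80. Cd86 had r = 0.956 and ranked number 43 of 11451 genes, while Cd276 had r = -0.18 and Cd274 r = -0.56. These correlations are over 6 samples that fall into the 2 genotypes and describe likeness only.

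Macrophage transcripts were higher in the knockouts as a sum. The summed level of 13 macrophage markers was 199, 257 and 219 CPM in the controls and 606, 353 and 1456 CPM in the knockouts (exact permutation p = 0.1, two-sided, the smallest that 3 against 3 samples allow). Every marker was detected. Of the 13, 5 (Cd68, Csf1r, C1qb, Timd4 and Lyz2) had every knockout above every control, beside 6.39% of all genes tested. Of the 13, edgeR called 0 and DESeq2 called 3, all higher, where DESeq2 called 0.762% of all genes tested as higher. A positive log2 fold change was seen for 12 of the 13, with a median of 1.76, beside 0.01 and 50.8% positive over all genes tested. Vcam1, the only one with a negative value, was at 33.2 ± 14.8 CPM in the controls and 30.3 ± 25.1 CPM in the knockouts (SD, n = 3 each). Csf1r, the receptor of the macrophage growth factor, had 258, 1463 and 988 counts in controls and 3008, 3352 and 4945 in knockouts. Among the knockouts Cd80 did not follow the order of the marker sum, since knockout 1 had more marker RNA than knockout 2 and less Cd80. Csf1r, at 75.7, 92.4 and 141 CPM in knockouts 1, 2 and 3, had the order of Cd80. So did C1qa, at 0.478, 2.31 and 3.77 CPM, while the other markers of the 13 did not. In knockout 3 the largest parts of the marker sum were Lyz2, at 711 CPM, and Marco, at 269 CPM. Over the 6 samples the Pearson r with Cd80 was 0.973 for Cd68 (rank 18 of 11451), 0.880 for Csf1r (rank 251) and 0.778 for Lyz2 (rank 665).

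Cd86 was also set against Csf1r within each sample, a measure chosen after the values were seen. Cd86 came to 202, 95.0 and 144 counts per 1000 counts of Csf1r in the controls and to 281, 176 and 193 in the knockouts, so the groups overlapped on this scale. Per 1000 counts of the whole marker list, Cd86 was at 9.04, 14.4 and 14.7 in the controls and 35.1, 46.0 and 18.8 in the knockouts, with every knockout above every control. The part of macrophage RNA in the differences of Cd80 and Cd86 was not tested.

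**Figure D4:**
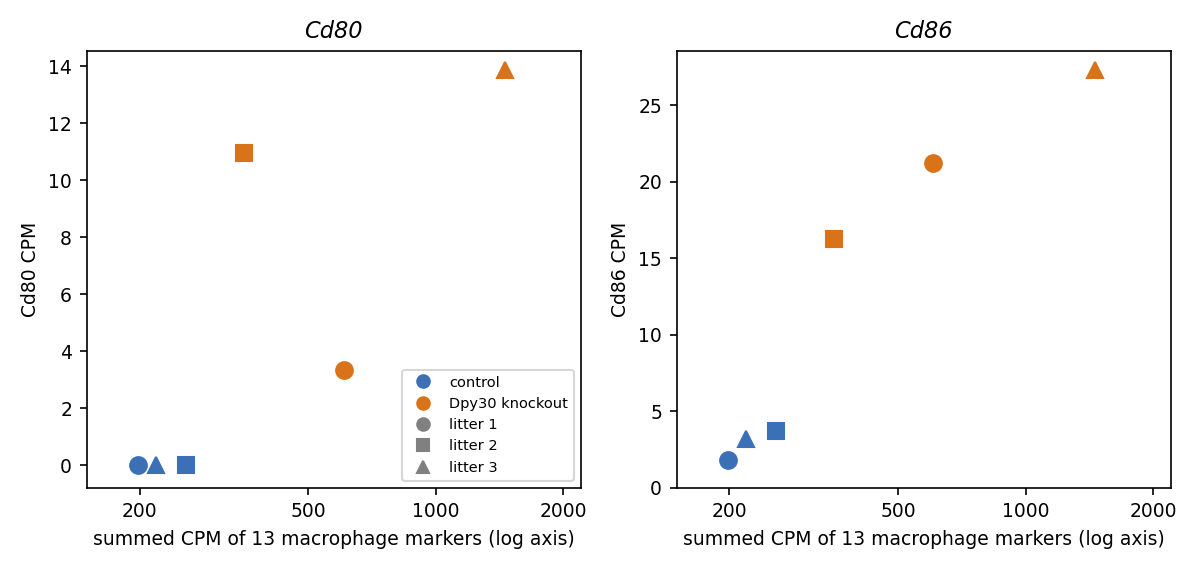
Cd80 (left) and Cd86 (right) in CPM against the summed CPM of 13 macrophage markers (log axis) in 3 controls (blue) and 3 knockouts (orange), with the marker shape giving the litter. The controls sit at 199 to 257 CPM of marker RNA with Cd80 at 0 and Cd86 at 1.796 to 3.72 CPM, and knockout 2, at 353 CPM of marker RNA, holds 11.0 CPM of Cd80 and 16.3 CPM of Cd86.

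Dendritic cells, B cells and activated T cells can also carry CD80. Of 12 dendritic cell markers, Xcr1 and H2-Aa were at 0 in all samples, and H2-Ab1, H2-Eb1, Siglech and Batf3 at 0 in every knockout. In the controls H2-Ab1 had 65, 0 and 7 counts and H2-Eb1 had 0, 1 and 0. Siglech had 0, 7 and 0 counts there and Batf3 had 0, 4 and 29, and the groups of each overlapped. Itgax, which encodes CD11c, had 30 counts in knockout 2 and 0 elsewhere. Clec9a, a receptor of cross-presenting dendritic cells, had 47, 384 and 28 counts in the controls and 503, 47 and 0 in the knockouts. Ccr7, a chemokine receptor of migrating dendritic cells, had 102 counts in knockout 3 and at most 1 elsewhere. Cd74, the invariant chain of MHC class II, was lower in every knockout, with 15, 11 and 14 counts in the controls and 0, 0 and 1 in the knockouts (edgeR adjusted p = 0.686). The summed dendritic cell level was 39.3 to 47.7 CPM in the controls and 38.4 to 73.2 CPM in the knockouts (exact permutation p = 0.4, two-sided), mostly from Zbtb46. Of 10 B cell markers, Ms4a1 and Pax5 were at 0 everywhere, with sums of 1.69 to 10.2 CPM in the controls and 1.94 to 5.02 CPM in the knockouts (exact permutation p = 0.9). Among 11 T and NK cell markers, Cd3d, Cd3e, Cd3g, Cd8a and Cd2 were at 0 everywhere, and the sums were 2.19 to 6.83 CPM in the controls and 4.86 to 32.9 CPM in the knockouts (exact permutation p = 0.3). Nkg7, a granule membrane gene in that list, had 0, 0 and 8 counts in controls and 43, 314 and 494 in knockouts.

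The mast cell and basophil sum was 31.8 to 35.6 CPM in the controls and 47.6 to 81.1 CPM in the knockouts (exact permutation p = 0.1), most of it Gata2, which HSCs also express, with Mcpt1, Tpsb2, Cma1 and Fcer1a at 0 everywhere. Without Gata2 the sum was 2.12 ± 2.93 CPM in the controls and 12.0 ± 5.75 CPM in the knockouts (SD, n = 3 each; exact permutation p = 0.1). Cpa3, a mast cell protease, had 2, 139 and 11 counts in the controls and 464, 148 and 627 in the knockouts, with every knockout above every control in CPM (edgeR adjusted p = 0.775). The hepatocyte sum was lower in knockouts, at 3.47 to 5.06 CPM against 5.25 to 23.0 CPM (exact permutation p = 0.1). Endothelial and stromal markers summed to 1088 to 1731 CPM in the controls and 156 to 1628 CPM in the knockouts (exact permutation p = 0.8), and erythroid markers to 697 to 1689 and 741 to 2341 CPM (exact permutation p = 1).

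Of 8 genes for the receptors and partners of these ligands, 4 (Ctla4, Pdcd1, Cd40lg and Tnfrsf9) were at 0 in all 6 samples and the other 4 had counts. Icos, the receptor of ICOSL, had 61, 0 and 72 counts in the controls and 60, 4 and 7 in the knockouts, with overlapping groups. Cd28 had 0 counts in the controls and 85, 1 and 10 in the knockouts. Every knockout was thus above every control, knockout 2 by 1 count, and Cd28 was not among the genes tested. Cd200r1, the receptor of CD200 on myeloid cells, had 173 to 294 counts in controls and 227 to 391 in knockouts, with overlapping groups. Of the 3 receptors tested, 0 passed in edgeR or DESeq2. Rgmb, reported to bind PD-L2, was the 1 with every knockout below every control, beside 7.74% of all genes tested. Its levels were 2.32 ± 1.65 CPM in the controls and 0.213 ± 0.298 CPM in the knockouts (SD, n = 3 each), with an edgeR adjusted p of 0.795.

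A list of 14 other genes held mostly ligands of the B7, butyrophilin and immunoglobulin kind, with some of other kinds, such as Lgals9 and Tnfrsf14. Of the 14, 12 were tested and 0 passed in edgeR. Their median log2 fold change was 0.15, beside 0.01 over all genes tested, and it turned to -0.02 with the litter as a block, -0.05 without knockout 1 and -0.15 without knockout 3, and was 0.27 without knockout 2. Of the 12, 2 had every knockout above every control and 1 every knockout below, beside 6.39% and 7.74% of all genes tested. Btn1a1, a butyrophilin gene, had 253, 55 and 89 counts in controls and 2, 0 and 0 in knockouts, and was the 1 gene of the list that DESeq2 called (DESeq2 adjusted p = 0.00314; edgeR adjusted p = 0.622). Cd47, which tells macrophages not to engulf a cell, was at 381 ± 62.7 CPM in the controls and 632 ± 193 CPM in the knockouts (SD, n = 3 each; edgeR adjusted p = 0.729). Lgals9, which encodes galectin 9, was at 67.8 ± 6.20 and 102 ± 31.7 CPM (SD, n = 3 each; edgeR adjusted p = 0.775). Both were higher in every knockout without passing. Vtcn1 and Btn2a2 were at 0 in all samples.

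Of 15 other TNF family ligands, 6 were at 0 in all samples and 5 were tested, of which 0 passed in edgeR or DESeq2 and 0 had groups apart. Their median log2 fold change was 0.45, and it was 1.59 without control 3, 0.85 without control 2, 0.73 without knockout 1, 0.99 without knockout 3 and 0.82 with the litter as a block. Tnfsf4, the ligand of OX40, had 0 counts in the controls and 0, 16 and 95 in the knockouts. Tnf had 9, 57 and 22 counts in controls and 140, 122 and 50 in knockouts, with overlapping groups.

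Transcription factors that act on costimulatory genes in antigen-presenting cells were taken from a list of 15 NF-kB, IRF and STAT genes with Spi1 and Ciita. Of 13 tested, 0 passed in edgeR or DESeq2, 12 had a positive log2 fold change and the median was 0.85, beside 0.01 and 50.8% positive over all genes tested. Without knockout 3 the median was 0.25. At an unadjusted p under 0.05, 3 were higher in knockouts and 0 lower, beside 4.26% and 2.24% of all genes tested. Nfkb1, which encodes the p105 and p50 NF-kB proteins, was at 30.05 ± 11.3 CPM in the controls and 71.9 ± 23.7 CPM in the knockouts (SD, n = 3 each; log2 fold change 1.26, SE 0.38; edgeR adjusted p = 0.672), higher in every knockout. Stat6, the factor of interleukin 4 signalling, was at 23.8 ± 5.50 and 48.8 ± 6.24 CPM (SD, n = 3 each; log2 fold change 1.03, SE 0.32; edgeR adjusted p = 0.672), also higher in every knockout. Rela and Rel, the partners of p50, had log2 fold changes of 0.04 and -0.04. Spi1, which encodes PU.1, was at 0.23, and Ciita, the master factor of MHC class II genes, had at most 6 counts in any sample.

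Of 17 genes of NF-kB signalling downstream of CD40 and of its targets, 13 were tested and 0 passed in edgeR or DESeq2. The median log2 fold change was -0.39, with 6 positive, and the sign depended on the samples kept: the median was 0.12 without control 3, -0.11 without control 1, -0.63 without knockout 1, -0.14 without knockout 3 and 0.43 over the genes with 10 counts or more in all samples. Nfkbie, an inhibitor and target of NF-kB, was the 1 gene with every knockout below every control (5.06 ± 3.14 against 1.84 ± 1.20 CPM; SD, n = 3 each; edgeR adjusted p = 0.866). Over all genes tested 7.74% had every knockout below. Tnfaip3, another target, had 0, 32 and 121 counts in controls and 44, 0 and 0 in knockouts, and Nfkbia had 46, 37 and 39 against 23, 0 and 159. Ccl22, a chemokine of activated antigen-presenting cells, was at 0 in all samples.

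**Figure D5:**
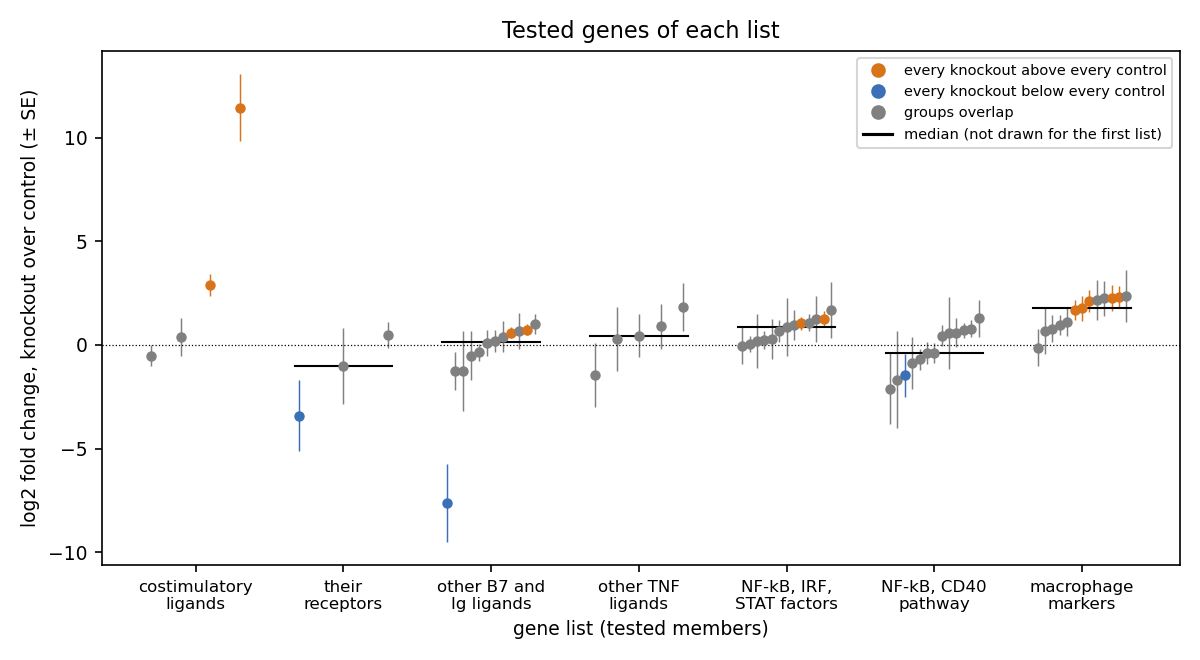
Log2 fold change, knockout over control, with its SE, of the tested genes of 7 lists; black bars are medians (not drawn for the costimulatory ligands), orange marks every knockout above every control, blue every knockout below, and grey overlap. Cd80 lies at 11.44 and Cd86 at 2.89, the NF-kB, IRF and STAT factors have a median of 0.85, and the NF-kB and CD40 pathway genes lie on both sides of 0.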

How the data were processed

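RNA sequencing of 6 samples was used. The files deposited by the authors hold raw counts for each gene symbol, 1 file a sample. The submitters' processing notes name TopHat2, HTSeq 0.6.0 and mm10 among their tools and builds; the gene annotation and strandedness are not given in the sources used here. The closing tallies of reads given to no gene, 41.0% to 51.0% of reads, were left out. No molecular tags are described.

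Genes were kept by edgeR's filterByExpr (13646), scaled by edgeR's TMM method, and compared by edgeR's quasi-likelihood test without a litter term (edgeR 4.0.16, R 4.3.3), adjusted by Benjamini-Hochberg (threshold 0.05). DESeq2 1.42.0 was an alternative. SE was derived from the fold change and its F value. Log2 CPM used a prior count of 2. Single values were compared by exact permutation, where 3 against 3 samples give p of 0.1 at the smallest. The procedure was tested on simulated data. Litters pair the samples by label; deviations within litters 1 to 3 correlated at -0.02, -0.08 and 0.0034. Positions and exon lengths are GENCODE M21 (GRCm38), and promoters RefSeq (GRCm38.p6).

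The genes and lists were chosen with earlier results of these data known. The genes named include the 10 members, Dpy30, the 5 annotated genes closest to Cd80 by r, and the nearest neighbours of Cd80. Up to 4 were named per pathway list (called by edgeR, then DESeq2, then with groups apart). For some marker lists the top or absent markers were named. The top marker was not named for the HSC, B cell, T and NK cell, hepatocyte and erythroid lists. Some markers outside this rule, such as Hlf and Clec9a, were named as well. Others, such as Cd28, Tnfsf4, Tnf and Nkg7, were named after their values were seen. The neighbours of Cd86 are not described. The edgeR and DESeq2 p-values set the genotype difference of a gene against the spread between these samples.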

Additional observations from a re-analysis of the deposited data

How the results depend on the processing

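The count of genes past the threshold, 0 by edgeR, was also 0 with the litter as replicate block (where 619 genes, against 888, had an unadjusted p under 0.05), with DESeq2-style size factors, with library size only and without any 1 sample (lowest 0, highest 0). It was 1 without a filter on low counts, 1 with at least 10 counts in every sample, and 138 with DESeq2. Counts for the 5 pathway lists stayed at 0 in edgeR, with 1 for the B7, butyrophilin and immunoglobulin list in DESeq2. The log2 fold change of Cd80 ranged from 10.87 (DESeq2) to 11.82 (without knockout 1) over 11 settings. Against 0 counts it depends on how each fit handles 0 and is no bound. The prior count of 2 used for log2 CPM did not enter it. Cd86, Cd80 and Cd274 kept their sign in every setting that gave a value. Genes on in all 3 knockouts numbered 2, or 6 with at most 3 counts in controls, and 2 to 6 with 1 sample left out. Genes on in all 3 controls numbered 1, or 6 at 30 counts and 3 with at most 3 counts in knockouts, and 1 to 9 with 1 sample left out. Without the most abundant marker the summed difference, knockout minus control, turned from 17.8 to -47.8 CPM for HSC markers, from 12.1 to -0.158 for dendritic cells and from 11.1 to -221 for erythroid cells; the macrophage difference went from 580 to 300.3 CPM. With a prior count of 0.5 the overlap with the 5 genes most like Cd80 was 4 of 5. The cause of these shifts was not tested. Depth limits the 6 genes below the filter, since a count of 0 allows 0.0680 to 0.104 CPM in the controls.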
